A study of Mus musculus with 8 samples.

Results

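A set of 8 genes that are used to mark mammary stem or tumor-initiating cells were followed through sorted tumor cells: Cd44, Cd24a, Prom1, Aldh1a1, Procr, Lgr5, Bcl11b and Cd200. They were chosen by name, with earlier results of these data known, as 8 of the 53697 genes in the count table. All 8 passed the filter on low counts. Mammary tumors came from mice that carry the MMTV-PyMT transgene, a model of luminal breast cancer in which the MMTV promoter drives the polyoma middle T oncogene in mammary epithelium. Both groups of mice also carried a reporter of Dll1, a Notch ligand. In PyMT-Dll1GFP mice (2 mice, called GFP mice here) GFP was knocked into the Dll1 locus, and in PyMT-Dll1mCh mice (2 mice, called mCh mice here) a BAC transgene expressed mCherry. The tumors were dissociated, cells positive for CD45, CD31 or TER119 were removed by sorting, and the rest were split by reporter signal into a Dll1+ and a Dll1- fraction, so that each of the 4 mice gave 1 Dll1+ and 1 Dll1- RNA-seq library. The labels name no treatment, and the age of the mice is not given in the sources used here. The comparison asks whether transcripts of these markers differ between Dll1+ and Dll1- tumor cells, and whether they differ between the reporter lines. Each reporter is represented by 2 mice, and the reporter line, the mice and any batch between the lines cannot be told apart.

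Not every marker in this set is a surface protein. Cd44 is a receptor for hyaluronan, Cd24a a GPI-anchored protein used with integrins to sort mammary epithelium, Prom1 (CD133) a membrane protein that in the mouse mammary gland marks hormone-sensing luminal cells, and Cd200 a ligand that restrains myeloid cells through the receptor Cd200r1. Procr is the endothelial protein C receptor, which marks a multipotent mammary stem cell and is also made by endothelium and stromal cells. Lgr5 is a receptor for R-spondins, which raise Wnt signaling, and marks a basal stem cell pool. Aldh1a1 is a cytosolic enzyme that makes retinoic acid, and Bcl11b is a nuclear zinc-finger factor linked to quiescent mammary stem cells.

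RefSeq gave a promoter window (the 250 bases before a transcript start, GRCm38.p6) for 6 of the 8 genes. Because Dll1 signals through Notch and RBPJ, its nuclear partner, the windows were searched on both strands for the RBPJ core TGGGAA, and also for the AP-1 motif TGANTCA. The RBPJ core is in 21.6% of all 32851 mouse promoter windows and the AP-1 motif in 6.75%. Of the 8 windows of these genes, 3 (Cd44, Cd200 and a window of Prom1) hold the RBPJ core and 4 (both of Prom1, 1 of Aldh1a1 and that of Procr) the AP-1 motif, and the window of Bcl11b holds neither. The windows of Cd44 (chr2:102901666-102901915, minus strand) and Cd200 (chr16:45409054-45409303, minus strand) are shown because each holds the RBPJ core at 2 places and neither reaches into the annotated gene. They run 5' to 3' on the gene's strand, and capitals mark the core or its reverse complement.
Cd44: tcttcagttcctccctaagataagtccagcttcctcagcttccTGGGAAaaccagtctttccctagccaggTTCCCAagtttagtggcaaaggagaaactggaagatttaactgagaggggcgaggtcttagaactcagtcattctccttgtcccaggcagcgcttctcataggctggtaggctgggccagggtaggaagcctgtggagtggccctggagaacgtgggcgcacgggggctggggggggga
Cd200: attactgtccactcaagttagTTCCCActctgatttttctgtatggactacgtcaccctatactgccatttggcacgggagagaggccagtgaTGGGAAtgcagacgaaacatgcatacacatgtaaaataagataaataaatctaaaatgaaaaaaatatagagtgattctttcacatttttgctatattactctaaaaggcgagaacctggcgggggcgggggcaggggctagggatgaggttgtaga
In Cd44 the matches start 207 and 179 bases before the transcript start, and in Cd200 229 and 157 bases before it. A match of letters is a description and not a binding site, and Lgr5 and Cd24a are named only.

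Total counts per library ranged from 27301396 to 123907626, so that the floor of 3 counts lay between 0.0242 and 0.110 CPM (counts per 1000000 counts of a library) and covers counting error only. Levels below are CPM after TMM normalization. Dll1 itself was at 7.61 to 50.3 CPM in the Dll1- libraries and at 87.5 to 250.2 CPM in the Dll1+ libraries, without overlap. The epithelial markers Epcam and Krt8 were abundant in all 8 libraries, with Epcam at 899 to 1240 CPM. Markers of cells that the sort should remove or does not target were also present. Summed over 11 fibroblast markers, 8 pericyte markers, 10 endothelial markers and 12 immune markers, the mCh Dll1- libraries held 8668 and 24978, 751 and 936, 291 and 663, and 451 and 482 CPM, while the 4 GFP libraries held 1292 to 1527, 235 to 285, 72.3 to 81.1 and 76.5 to 104 CPM. In bulk libraries, fewer cells that express a gene and less RNA per cell cannot be told apart.

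Per kilobase of annotated exon, Cd24a was the most abundant of the 8 transcripts, and Aldh1a1, Bcl11b and Lgr5 the least. The mean over the 8 libraries was 224 CPM per kilobase for Cd24a (180 to 273 over the libraries), 20.4 for Cd44 (13.8 to 23.8), 16.3 for Cd200 (10.3 to 20.5) and 11.1 for Prom1 (7.82 to 14.8). It was 2.02 for Procr (0.410 to 8.51), 0.753 for Lgr5 (0.189 to 2.09), 0.657 for Bcl11b (0.185 to 1.39) and 0.635 for Aldh1a1 (0.0913 to 2.66). The ranges of Cd44, Cd200 and Prom1 overlapped with their neighbors in this order, as did those of the last 4 genes, whereas Cd24a lay apart. The 4 abundant transcripts also varied least, with 1.52-fold (Cd24a) to 1.98-fold (Cd200) between the highest and the lowest library, against 7.53-fold for Bcl11b, 11.1-fold for Lgr5, 20.8-fold for Procr and 29.2-fold for Aldh1a1.

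**Figure D1:**
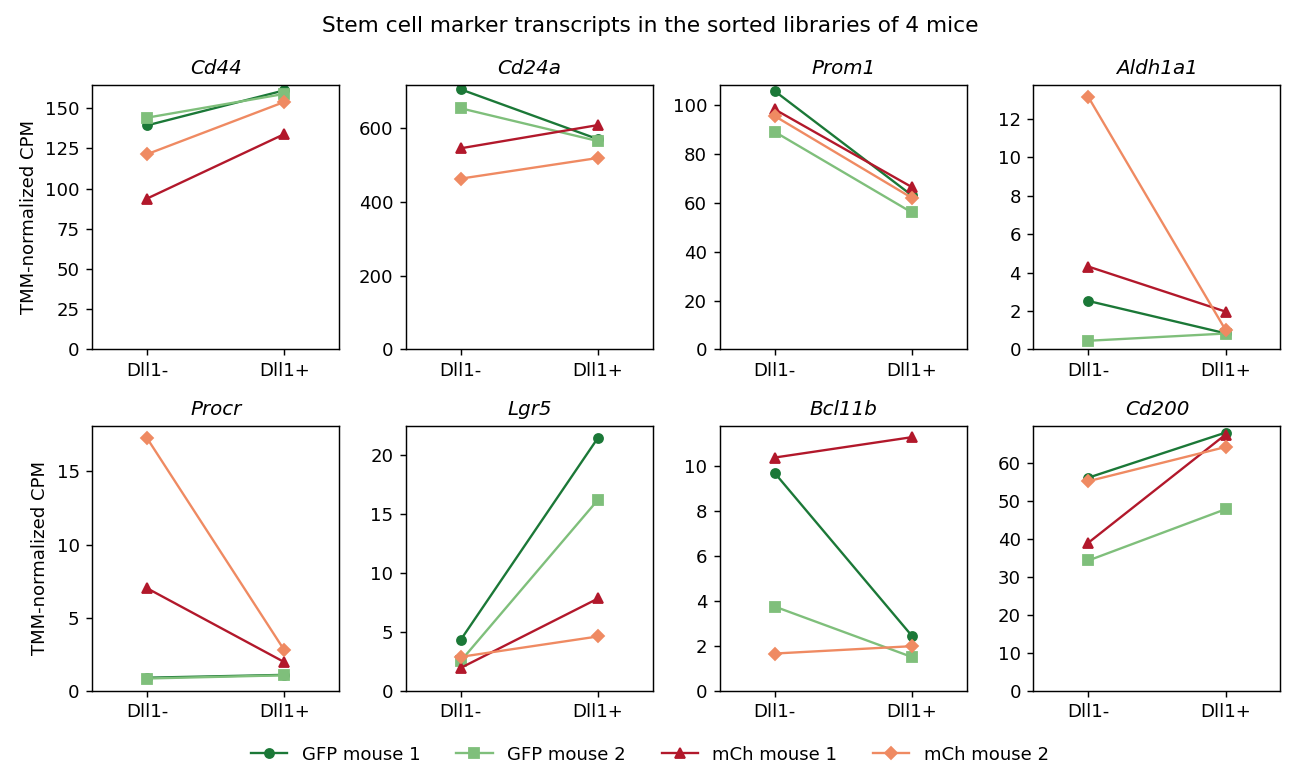
TMM-normalized CPM (linear axis from 0, one scale per gene) of the 8 marker genes in the Dll1- and Dll1+ library of each mouse, with a line joining the libraries of a mouse. Prom1 falls and Lgr5 rises in each of the 4 mice without overlap of the groups, and Procr and Aldh1a1 are highest in the mCh Dll1- libraries.

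Over the 4 mice, Lgr5 and Cd200 were higher and Prom1 was lower in Dll1+ than in Dll1- cells at an adjusted p under 0.05. These are 3 of 8 genes, beside 14% of the 18322 genes tested (6.98% higher and 7.04% lower). The other 5 did not pass the test. Because the 8 genes were chosen with earlier results of these data known, their shares beside those of all genes are a description only. The median log2 fold change of the 8 genes was -0.35, and that of all tested genes was -0.0007. In 4 of the 8 genes the 4 mice had the same direction, as had 41.3% of tested genes, and in 2 of the 8 (Prom1 and Lgr5) the Dll1+ and Dll1- libraries did not overlap, as in 6.07% of tested genes (2.74% higher and 3.33% lower in Dll1+ cells). Within the GFP mice 3 of 8 were called (Lgr5 higher, Prom1 and Bcl11b lower), beside 9.13% of all tested genes (4.29% higher, 4.84% lower). Within the mCh mice 3 of 8 were also called (Cd44 higher, Prom1 and Procr lower), beside 11.8% (5.51% higher, 6.25% lower). Prom1 was the member called in both reporter lines. The test of the difference between the lines called none of the 8 genes with edgeR and 0.071% of all tested genes (0.0655% with the more positive log2 change in GFP mice, 0.00546% in mCh mice). Of the 8 genes, 3 differed at an unadjusted p under 0.05, as did 2420 of the 18322 tested genes. DESeq2 called 2, Procr and Bcl11b, beside 2.95% of all tested genes.

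**Figure D2:**
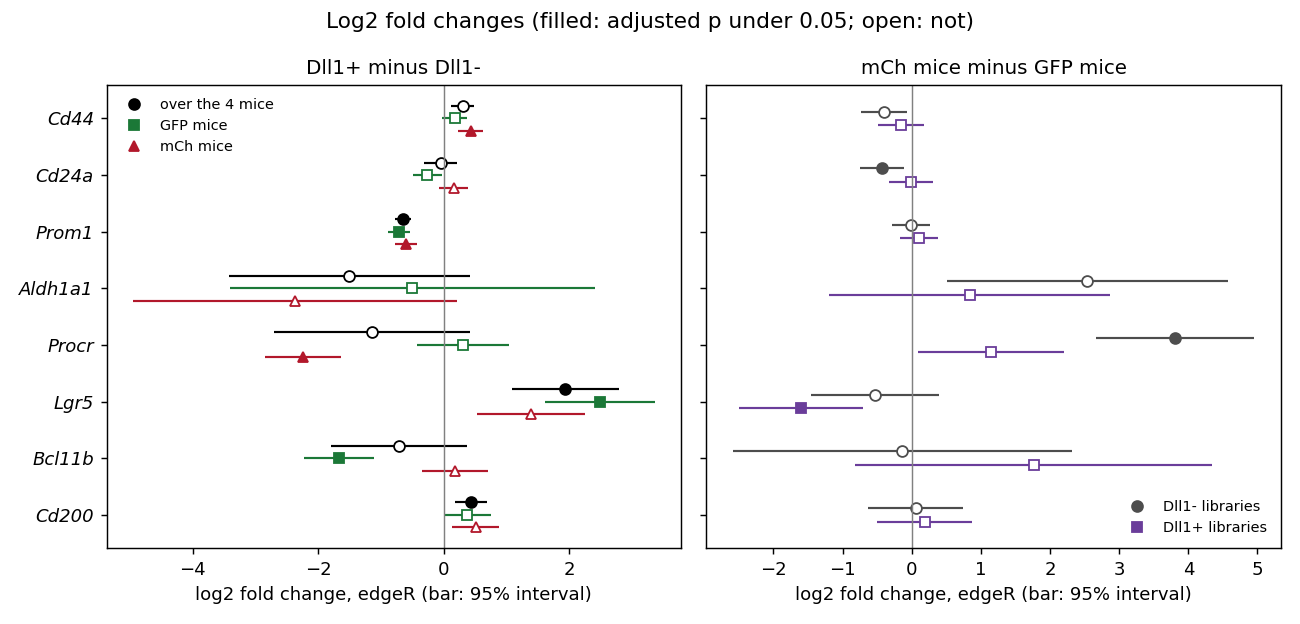
Log2 fold changes of the 8 marker genes from edgeR with 95% intervals (horizontal axes), for Dll1+ minus Dll1- over the 4 mice and in each reporter line on the left, and for mCh minus GFP mice at each Dll1 status on the right. Filled symbols have an adjusted p under 0.05; in the left panel Prom1 is filled in all 3 fits, and in the right panel Procr and Cd24a are filled for the Dll1- and Lgr5 for the Dll1+ libraries.

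Lgr5 (ENSMUSG00000020140.15, chr10:115450311-115587780, minus strand, GRCm38) had the largest rise of the 8 genes. In Dll1- libraries it was at 4.33 and 2.53 CPM in the GFP mice and at 1.94 and 2.87 CPM in the mCh mice. In Dll1+ libraries it was at 21.5 and 16.2 CPM in the GFP mice and at 7.83 and 4.61 CPM in the mCh mice. Every Dll1+ library was above every Dll1- library, although mCh mouse 2 exceeded the Dll1- library of GFP mouse 1 by little. These levels rest on 73 to 242 counts in the Dll1- and 256 to 725 counts in the Dll1+ libraries. The fit over the 4 mice gave a 3.83-fold rise (log2 1.94, SE 0.34, adjusted p = 0.0243). Per line the log2 fold change was 2.49 in the GFP mice (SE 0.35, adjusted p = 0.0170). In the mCh mice it was 1.39 (SE 0.34, adjusted p = 0.0613). These effects differed by 1.10 (95% interval -0.11 to 2.30, adjusted p = 0.418). This difference was 1.84 without mCh mouse 1 (adjusted p = 0.0306) and 0.51 without mCh mouse 2, and with no filter it was called at 1.13 (adjusted p = 0.0179), within a range of 0.0179 to 0.802 over the 9 alternatives. The call over the 4 mice was lost without GFP mouse 1, GFP mouse 2 or mCh mouse 1 (adjusted p = 0.100, 0.0760 and 0.117). Over all alternatives the log2 fold change lay between 1.69 and 2.32 and the adjusted p between 7.08e-07 and 0.117. In the GFP mice the call was lost without either GFP mouse (adjusted p = 0.121 and 0.174, range 3.0e-16 to 0.174), and in the mCh mice the log2 fold change was 1.99 without mCh mouse 2 (adjusted p = 0.0159) and 0.66 without mCh mouse 1 (0.178). DESeq2 (0.0034) and no filter (8.4e-07) also called Lgr5 in the mCh mice.

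Genes that work beside Lgr5 did not move as a group. Of 11 tested R-spondin and LGR genes, 2 rose and 2 fell over the 4 mice, beside 6.98% and 7.04% of all tested genes. The median log2 fold change of the 11 was -0.23. Axin2, a gene of the Wnt pathway, fell by 1.54 on the log2 scale (adjusted p = 0.0109) and was lower in 4 of 4 mice. For example, it went from 3.65 to 1.19 CPM in GFP mouse 1 and from 6.80 to 2.50 CPM in mCh mouse 2. Tnfrsf19 fell by 1.18 (adjusted p = 0.0181). The coreceptor Lrp6 rose by 0.35 (adjusted p = 0.0172), and Rnf43, a ubiquitin ligase that removes Wnt receptors, by 0.28 (adjusted p = 0.0296). The other R-spondin receptors did not pass the test over the 4 mice, with log2 fold changes of 0.11 for Lgr4 (adjusted p = 0.687) and -0.23 for Lgr6 (adjusted p = 0.386). From Dll1- to Dll1+ cells, Lgr4 rose within the mCh mice (0.47, adjusted p = 0.0220) and Lgr6 fell within the GFP mice (-0.59, adjusted p = 0.0116). The difference of this effect between the lines was not called for either gene (adjusted p = 0.0879 and 0.0881). The ligands Rspo2, Rspo3 and Rspo4 were too low to be tested.

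**Figure D3:**
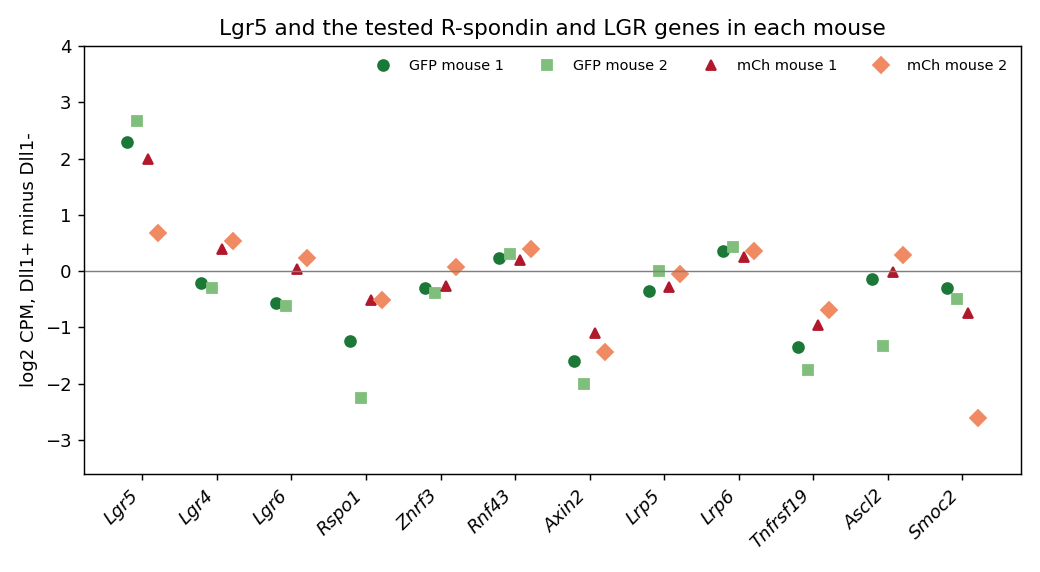
Difference of log2 CPM between the Dll1+ and the Dll1- library of each mouse (vertical axis, log2 scale) for Lgr5 and the 11 tested R-spondin and LGR genes, 1 symbol per mouse. Lgr5 lies between 0.67 and 2.66 in the 4 mice, Axin2 and Tnfrsf19 lie below 0 in all 4, and Lgr4 and Lgr6 lie on both sides of 0.

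Prom1 (ENSMUSG00000029086.15, chr5:43993620-44102032, minus strand) was the most uniform of the 8 genes between mice. Its Dll1- libraries held 106 and 89.2 CPM in the GFP mice and 98.4 and 95.7 CPM in the mCh mice, and its Dll1+ libraries 63.2 and 56.1 CPM and 66.5 and 62.1 CPM. All Dll1+ libraries were below all Dll1- libraries, and the log2 differences within the 4 mice were between -0.75 and -0.57. Fitted over the 4 mice, its level was 1.57-fold lower in Dll1+ cells (log2 -0.65, SE 0.05, adjusted p = 0.0053). It was -0.71 in the GFP mice (adjusted p = 0.0051) and -0.59 in the mCh mice (adjusted p = 0.0108), with a difference of -0.11 between the lines (95% interval -0.36 to 0.13). Over the 4 mice the call held under all 9 alternatives, with an adjusted p of at most 0.0406. Within a line it was lost without GFP mouse 1 or GFP mouse 2 in the GFP mice (adjusted p = 0.0949 and 0.0901, range 2.5e-08 to 0.0949), and without the block or with the line fitted alone in the mCh mice (adjusted p = 0.0629 and 0.0684, range 1.1e-06 to 0.0684). An antisense gene that overlaps Prom1 held at most 19 counts in any library.

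Cd24a (ENSMUSG00000047139.9, chr10:43578284-43584265, plus strand) differed in sign between the reporter lines and passed no test of Dll1+ against Dll1-. In the GFP mice it was at 705 and 654 CPM in Dll1- and at 570.1 and 565 CPM in Dll1+ libraries. In the mCh mice the values were 546 and 463 CPM in Dll1- and 609 and 519 CPM in Dll1+ libraries. The Dll1+ value was thus the lower in both GFP mice and the higher in both mCh mice, and over the 4 mice the groups overlapped. The fitted log2 change was -0.05 over the 4 mice (95% interval -0.31 to 0.21, adjusted p = 0.782), -0.26 in the GFP mice (adjusted p = 0.151) and 0.16 in the mCh mice (adjusted p = 0.313).

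Cd200 (ENSMUSG00000022661.14, chr16:45382135-45409053, minus strand) rose in each mouse by a small amount. GFP mouse 1 went from 56.2 CPM in Dll1- to 68.0 CPM in Dll1+ cells and GFP mouse 2 from 34.3 to 47.8 CPM. In mCh mouse 1 the level went from 39.0 to 67.5 CPM and in mCh mouse 2 from 55.2 to 64.2 CPM. The Dll1+ and Dll1- libraries overlapped across mice, because GFP mouse 2 was low in both. Fitted over the 4 mice, the rise was 1.36-fold (log2 0.44, SE 0.10, adjusted p = 0.0441), and neither line passed the test alone (0.38, adjusted p = 0.185 in GFP mice and 0.51, adjusted p = 0.0854 in mCh mice). In the GFP mice 4 of 10 alternatives called it (adjusted p from 0.0108 to 0.608), and in the mCh mice 3 of 10 (0.0003 to 0.410), where the value was 0.20 without mCh mouse 1 and 0.77 without mCh mouse 2. The call was lost without GFP mouse 1, GFP mouse 2 or mCh mouse 1 (adjusted p = 0.103, 0.120 and 0.112) and without the mouse as a block (adjusted p = 0.211), within a range of 0.0033 to 0.211 over the 9 alternatives.

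Partners of prominin, CD24 and CD200 were tested for 7 of 12 genes. Of these, 3 rose and none fell, beside 6.98% and 7.04% of all tested genes. The median log2 fold change of the 7 was 0.12. The GPI-anchored proteins Cd14, a coreceptor for lipopolysaccharide, Cd55 and Cd59a, which both inhibit complement, rose by 0.70 (adjusted p = 0.0059), 0.51 (adjusted p = 0.0129) and 0.51 (adjusted p = 0.0492) on the log2 scale. Prom2, the paralog of Prom1, was lower in 4 of 4 mice but did not pass the test (-0.37, adjusted p = 0.110). The receptors of Cd200 (Cd200r1 to Cd200r4) and Siglecg, a receptor of Cd24, were too low to be tested, with Cd200r1 at 0.0895 to 0.595 CPM.

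Cd44 (ENSMUSG00000005087.17, chr2:102811141-102901665, minus strand) had a higher value in the Dll1+ library of each mouse, and passed the test in the mCh mice but not in the GFP mice or over the 4 mice. The Dll1- libraries were at 139 and 144 CPM in the GFP mice and at 93.8 and 121 CPM in the mCh mice. The Dll1+ libraries were at 161 and 159 CPM in the GFP mice and at 134 and 154 CPM in the mCh mice. Within each line the Dll1+ libraries were above the Dll1- libraries, while the lines together overlapped. Of the epithelial markers, Epcam, Krt8 and Krt18 had log2 fold changes of 0.40, 0.34 and 0.44 in the mCh mice, and Krt19 had -0.11. None of these was called (adjusted p from 0.0660 to 0.581). Of 18 luminal cell markers, 3 rose and 5 fell in Dll1+ cells of the mCh mice, beside 5.51% and 6.25% of all tested genes. Those that rose were Krt7 (0.42, adjusted p = 0.0332), Gata3 (0.38, adjusted p = 0.0314) and the milk casein Csn3 (0.73, adjusted p = 0.0346). The part of library composition in the Cd44 result was not tested. For Cd44 the log2 fold change was 0.43 in the mCh mice (SE 0.08, adjusted p = 0.0270) and 0.18 in the GFP mice (SE 0.08, adjusted p = 0.235). The lines differed by -0.25 (95% interval -0.53 to 0.03, adjusted p = 0.421). Over the 4 mice Cd44 changed by 0.30 (SE 0.08, adjusted p = 0.0508). It passed the threshold over the 4 mice with RLE size factors, DESeq2, no filter and the stricter filter (adjusted p = 0.0437, 0.0027, 0.0371 and 0.0419), and without one of the mice the highest adjusted p was 0.163. In the mCh mice the call was lost without any one of the 4 mice (adjusted p from 0.0564 to 0.156), with the mCh mice fitted alone (0.0964) and without the block (0.165), within a range of 0.0035 to 0.165.

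Of 15 tested hyaluronan and CD44 partners, 2 rose and 2 fell, beside 6.98% and 7.04% of all tested genes. The median log2 fold change of the 15 was -0.09. Spp1 (osteopontin), a secreted ligand of CD44, rose by 1.36 (adjusted p = 0.0053) and was higher in 4 of 4 mice, from 1001 to 3208 CPM in mCh mouse 1. Hmmr, an intracellular hyaluronan-binding protein of the mitotic spindle, fell by 1.12 (adjusted p = 0.0069), as did the hyaluronidase Hyal2 by 0.52 (adjusted p = 0.0227). Hyal1, a lysosomal hyaluronidase, rose by 0.31 (adjusted p = 0.0305).

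Procr (ENSMUSG00000027611.12, chr2:155751117-155755471, plus strand) fell in the mCh mice and was low in all GFP libraries. In the mCh mice it was at 7.01 and 17.3 CPM in Dll1- and at 1.95 and 2.77 CPM in Dll1+ libraries. In the GFP mice it was at 0.887 and 0.832 CPM in Dll1- and at 1.08 and 1.05 CPM in Dll1+ libraries, which are 24 to 47 counts. Each mCh library was above each GFP library, and the highest value, in the Dll1- library of mCh mouse 2, was 20.8 times the lowest. Its level was 4.73-fold lower in Dll1+ cells of the mCh mice (log2 -2.24, SE 0.25, adjusted p = 0.0095), and in the GFP mice the log2 change was 0.31 (95% interval -0.42 to 1.04, adjusted p = 0.577). Both lines together gave -1.14 (SE 0.62, adjusted p = 0.264; -0.53 without mCh mouse 2 and -1.60 without GFP mouse 2), and the difference between the lines was 2.55 (SE 0.39, adjusted p = 0.0864). The call in the mCh mice was lost without the block (adjusted p = 0.0605) and with these mice fitted alone (adjusted p = 0.0684), within a range of 4.17e-15 to 0.0684.

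Stromal markers moved with Procr. In the mCh mice, 5 of 11 fibroblast, 6 of 8 pericyte, 3 of 10 endothelial and 8 of 10 tested immune markers were lower in Dll1+ cells. None of these markers was higher there, and none was called in the GFP mice. Of all tested genes, 6.25% were lower and 5.51% higher in Dll1+ cells of the mCh mice, and 9.13% were called in the GFP mice. The summed fibroblast markers fell from 8668 to 3785 CPM in mCh mouse 1 and from 24978 to 3958 CPM in mCh mouse 2, and the summed pericyte markers from 751 to 299 CPM and from 936 to 265 CPM. Rgs5, which defines pericytes, was at 249.8 and 294 CPM in the Dll1- and at 34.5 and 35.6 CPM in the Dll1+ libraries of the mCh mice, against 7.49 to 12.01 CPM in the GFP mice. Col1a1, which defines fibroblasts, was at 2592 and 6581 CPM and at 1158 and 1215 CPM in the same libraries. None of the defining markers was at 0 in any library. The part of stromal cells in the Procr result was not tested.

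**Figure D4:**
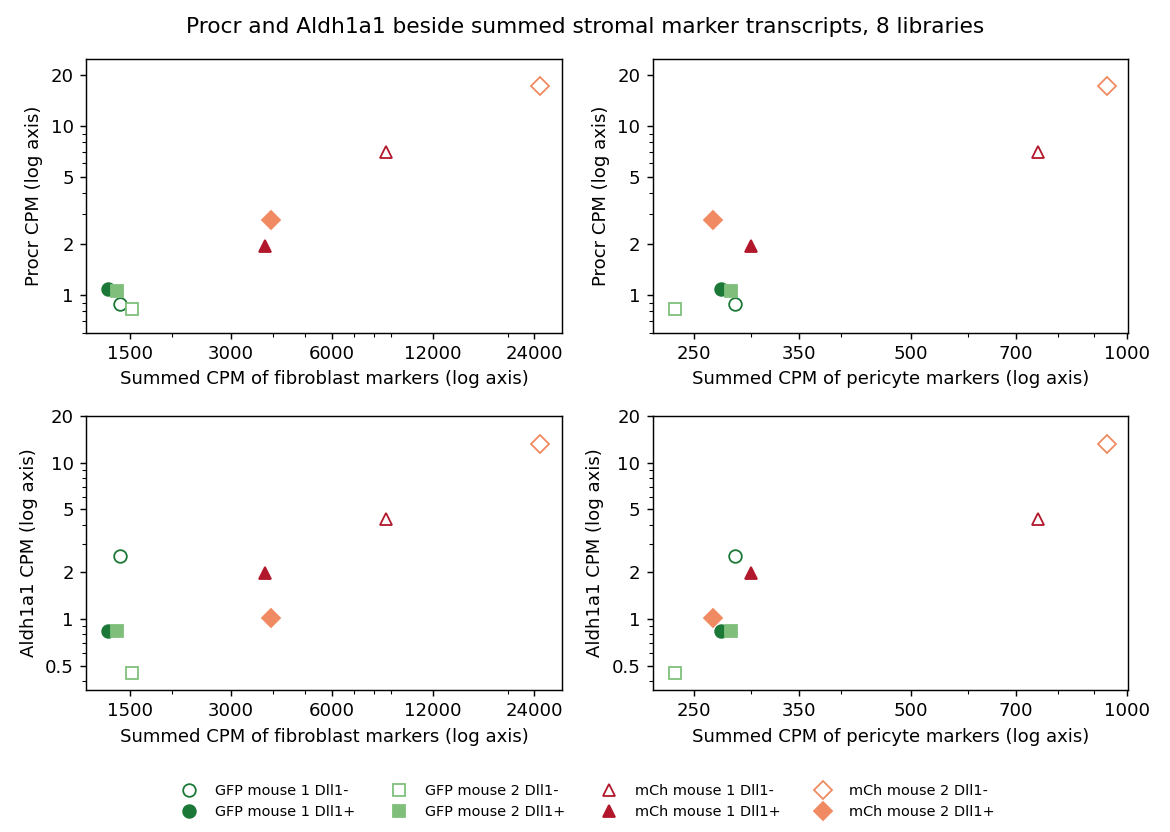
CPM of Procr (top) and Aldh1a1 (bottom) against the summed CPM of 11 fibroblast markers (left) and 8 pericyte markers (right) in the 8 libraries, all axes logarithmic, with open symbols for Dll1- and filled symbols for Dll1+ cells. The mCh Dll1- libraries hold the highest values on both axes, and the 4 GFP libraries lie together at 1292 to 1527 CPM of fibroblast markers, with Aldh1a1 from 0.451 to 2.52 CPM.

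Of 9 tested partners of the protein C receptor, 1 rose and 1 fell over the 4 mice, beside 6.98% and 7.04% of all tested genes. Proc, the zymogen of its ligand, fell by 1.97 (adjusted p = 0.0288), at levels of 0.617 to 1.16 CPM in Dll1- and 0.105 to 0.244 CPM in Dll1+ libraries. The lowest value, in the Dll1+ library of GFP mouse 1, lay at the floor of 3 counts, which was 0.106 CPM there. F3 (tissue factor), which starts coagulation, rose by 0.75 (adjusted p = 0.0124). F2r, the thrombin receptor through which activated protein C signals, was lower in Dll1+ than in Dll1- cells of the mCh mice (-1.21, adjusted p = 0.0175). It was not called over the 4 mice (-0.66, adjusted p = 0.192).

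Aldh1a1 (ENSMUSG00000053279.7, chr19:20492715-20643465, plus strand) passed no test of Dll1+ against Dll1- with edgeR. Its Dll1- libraries were at 2.52 and 0.451 CPM in the GFP mice and at 4.32 and 13.1 CPM in the mCh mice. Its Dll1+ libraries were at 0.837 and 0.828 CPM in the GFP mice and at 1.97 and 1.01 CPM in the mCh mice. It was lower in Dll1+ cells of 3 mice and higher in GFP mouse 2, whose Dll1- library held 13 counts. Its log2 fold change was -1.50 over the 4 mice (95% interval -3.43 to 0.42, adjusted p = 0.236), -0.50 in the GFP mice (adjusted p = 0.818) and -2.37 in the mCh mice (adjusted p = 0.191). DESeq2 called it in the mCh mice (-2.42, adjusted p = 0.0073), within a range of 0.0073 to 0.567 over the alternatives. Leaving out mCh mouse 2 brought the value over the 4 mice to -0.74 and that in the mCh mice to -1.16, leaving out mCh mouse 1 brought the latter to -3.72, and without GFP mouse 2 the former was -2.13. In the GFP mice the value changed sign, to 0.87, without GFP mouse 1 and was -1.59 without GFP mouse 2. Its near-identical paralog Aldh1a7 was at 0.264 to 4.16 CPM, so that reads of these genes could be split between them. The highest Aldh1a1 level lay in the library with the most fibroblast marker transcripts, and the part of stromal cells was not tested.

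Among 18 other retinaldehyde dehydrogenase and retinoid genes, 3 rose and 2 fell over the 4 mice, beside 6.98% and 7.04% of all tested genes. Aldh1a3, a retinaldehyde dehydrogenase that also accounts for ALDH activity in mammary cells, rose by 0.52 (adjusted p = 0.0244). It went from 34.6 to 44.4 and from 22.7 to 27.8 CPM in the GFP mice and from 10.2 to 17.5 and from 36.5 to 56.4 CPM in the mCh mice, which makes it higher in 4 of 4 mice and at or above 10 CPM throughout. Cyp26a1, the retinoic-acid-induced enzyme that degrades retinoic acid, rose by 2.26 (adjusted p = 0.0155), from 0.921 to 2.87 CPM in Dll1- to 4.65 to 12.3 CPM in Dll1+ libraries, without overlap. Crabp2, which carries retinoic acid to its receptors, rose by 0.31 (adjusted p = 0.0197). Aldh3b2, an aldehyde dehydrogenase of another family, fell by 0.84 (adjusted p = 0.0106), and Rdh10 by 0.46 (adjusted p = 0.0490). Cyp26b1 did not pass the test (-0.69, adjusted p = 0.0691). The median log2 fold change of the 18 genes was -0.21.

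Bcl11b (ENSMUSG00000048251.15, chr12:107910403-108003602, minus strand) fell in the GFP mice. It went from 9.69 to 2.44 CPM in GFP mouse 1 and from 3.74 to 1.499 CPM in GFP mouse 2. In mCh mouse 1 it was at 10.4 CPM in Dll1- and 11.3 CPM in Dll1+ cells, and in mCh mouse 2 at 1.65 and 1.98 CPM. The mice differed more than the sorted cells did in the mCh line, where mCh mouse 1 was the highest and mCh mouse 2 among the lowest. Its level was 3.17-fold lower in Dll1+ cells of the GFP mice (log2 -1.66, SE 0.23, adjusted p = 0.0113), with a log2 change of 0.18 in the mCh mice (95% interval -0.35 to 0.71, adjusted p = 0.622). Over the 4 mice it was -0.71 (adjusted p = 0.308; -0.29 without GFP mouse 1 and -1.04 without mCh mouse 1), and the difference between the lines was -1.85 (SE 0.32, adjusted p = 0.0989). The call in the GFP mice was lost without GFP mouse 1 or GFP mouse 2 (adjusted p = 0.128 and 0.0800) and without the block (adjusted p = 0.480), within a range of 3.9e-09 to 0.480. Bcl11a, the other member of the family, did not pass the test (-0.09, adjusted p = 0.721).

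Between the reporter lines, Procr and Cd24a differed in the Dll1- libraries and Lgr5 in the Dll1+ libraries. In Dll1- cells 2 of 8 genes were called, beside 36.6% of all tested genes (18.7% higher and 17.9% lower in mCh mice). Procr was 14.0-fold higher in the mCh mice (log2 3.81, SE 0.48, adjusted p = 0.0026), with a mean of 12.1 ± 7.26 CPM against 0.859 ± 0.039 CPM in the GFP mice (SD, n = 2 mice each). Cd24a was lower (-0.43, SE 0.13, adjusted p = 0.0429), with 504 ± 58.2 CPM against 680 ± 36.3 CPM. For Aldh1a1 the log2 fold change was 2.54 (adjusted p = 0.0561), for Cd44 -0.40 (adjusted p = 0.0631), and for Prom1 -0.01 (95% interval -0.28 to 0.27).

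In the same Dll1- comparison all 11 fibroblast, all 10 endothelial, 6 of 8 pericyte and 9 of 10 tested immune markers were higher in the mCh mice. The share of all tested genes that were higher was 18.7%. The fibroblast markers had a median log2 fold change of 3.50. In Dll1+ cells 1 of 8 genes was called, beside 30.6% of all tested genes. Lgr5 was lower in the mCh mice (-1.60, SE 0.38, adjusted p = 0.0217), at 6.22 ± 2.28 CPM against 18.9 ± 3.72 CPM. Procr had a log2 fold change of 1.15 there (adjusted p = 0.0923), and the fibroblast markers had a median of 1.51, with 5 of 11 higher. The Procr and Lgr5 calls were lost without GFP mouse 1 or GFP mouse 2 (Procr adjusted p = 0.0818 and 0.0764, Lgr5 adjusted p = 0.153 and 0.135), where 1 mouse stood for the GFP line and 0 genes were called in all, with 8 of 10 alternatives keeping each call. Cd24a kept its call in 5 of 10 alternatives (adjusted p 0.0125 to 0.293), and lost it without GFP mouse 1 (0.293), GFP mouse 2 (0.197) or mCh mouse 2 (0.0889), with no filter (0.0641) and with the Dll1- libraries fitted alone (0.0834).

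Of 33 other genes used to mark mammary stem, basal or tumor-initiating cells, 7 rose and 2 fell, beside 6.98% and 7.04% of all tested genes, with a median log2 fold change of 0.53. Tspan8, a tetraspanin that marks with Lgr5 a quiescent mammary stem cell, rose by 2.23 (adjusted p = 0.0053). Its level went from 33.1 to 151 and from 23.5 to 143 CPM in the GFP mice and from 9.51 to 42.3 and from 17.8 to 68.6 CPM in the mCh mice. The basal keratin Krt5 rose by 2.77 (adjusted p = 0.0073) and the basal transcription factor Trp63 by 1.08 (adjusted p = 0.0461), and Krt14 was higher in 4 of 4 mice without passing the test (1.55, adjusted p = 0.0533). The receptor kinases Kit, a marker of luminal progenitors, and Met rose by 0.81 (adjusted p = 0.0059) and 0.58 (adjusted p = 0.0065). The 2 genes that fell were Abcg2, an efflux transporter that marks side population cells (-0.77, adjusted p = 0.0077), and Ly6a (Sca-1) (-1.21, adjusted p = 0.0495), both lower in 4 of 4 mice. Thy1, a basal marker shared with fibroblasts, did not pass the test over the 4 mice (-1.43, adjusted p = 0.169), fell in the mCh mice (-2.45, adjusted p = 0.0238) and was at 101 and 206 CPM in their Dll1- libraries.

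Of 18 luminal cell markers, 1 rose and 5 fell over the 4 mice, beside 6.98% and 7.04% of all tested genes, with a median log2 fold change of -0.33. Their summed level, in which abundant transcripts weigh most, was higher in the Dll1+ library of each mouse. It was 9382 to 13476 CPM in the Dll1- and 14137 to 18764 CPM in the Dll1+ libraries. As Prom1 did, the hormone-sensing genes Foxa1, a pioneer factor for the estrogen receptor, Cited1, its coactivator, and Prlr, the prolactin receptor, fell, by 1.88 (adjusted p = 0.0244), 2.40 (adjusted p = 0.0063) and 0.75 (adjusted p = 0.0289) on the log2 scale. Also lower were Areg (-1.97, adjusted p = 0.0362) and Pgr (-1.80, adjusted p = 0.0408). Esr1, the gene of the estrogen receptor, did not pass the test over the 4 mice (-0.35, adjusted p = 0.197). It was lower in Dll1+ than in Dll1- cells of the mCh mice (-0.66, adjusted p = 0.0438) and not called in the GFP mice (-0.04, adjusted p = 0.902). Csn3, a milk casein, rose by 0.85 (adjusted p = 0.0119). Krt8 and Krt18, the keratins that define luminal cells, did not pass the test (0.31, adjusted p = 0.0638 and 0.36, adjusted p = 0.0643). Of 12 genes that respond to tissue dissociation, 7 rose and none fell, beside 6.98% and 7.04% of all tested genes. Among them were Ier3 at 0.77 (adjusted p = 0.0065) and Atf3 at 0.66 (adjusted p = 0.0088). The summed level of the 12 genes was 15067 to 26859 CPM in the Dll1- and 23181 to 37583 CPM in the Dll1+ libraries. The part of dissociation in the marker results was not tested.

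The tested genes whose profile over the 8 libraries came closest to a marker were found by the root mean square difference of centered log2 CPM, as a description. For Procr they were Sdk1 (0.18) and Ddr2 (0.19), a collagen receptor, against a spread of 1.46 for Procr itself. Prom1 was closest to Prag1 (0.09) and Blm (0.10), Cd44 to Foxo3 and Tlk2 (0.07 each), Cd24a to Ppm1h (0.03) and Gtf2ird2 (0.06), and Cd200 to Klhl10 (0.15) and Gm49369 (0.16). For Lgr5 the nearest were Gm23262 (0.38) and Capn12 (0.40) and for Bcl11b Spo11 (0.39) and Gm49097 (0.40). These distances were more than those of the abundant markers, but the genes themselves also varied more. Their own spreads were 1.17 for Lgr5 and 1.16 for Bcl11b, against 0.18 (Cd24a) to 0.34 (Cd200) for the abundant markers.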

How the data were processed

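RNA was sequenced from 8 libraries of sorted tumor cells, 4 pairs of Dll1+ and Dll1- cells, paired by the mouse number in the labels. Per the labels, stranded Illumina libraries were made. The authors quantified reads with salmon against GENCODE M20 transcripts (GRCm38.p6), used tximport to sum them per gene, and deposited estimated counts, which are whole numbers and not normalized. Symbols, coordinates and exon lengths came from GENCODE M21 (GRCm38), which matched 53668 of 53697 genes, 52806 with the same version and 862 by identifier alone.

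Tests ran in R 4.3.3 with edgeR 4.0.16 (TMM, filterByExpr on the Dll1 groups, robust quasi-likelihood F test), adjusted by Benjamini-Hochberg over 18322 tested genes at a threshold of 0.05. The combined model held the mouse and Dll1 status, after the study's model of both factors. A second fit held the mouse and a Dll1 effect for each reporter, and its difference is GFP minus mCh. Reporter lines were compared with a mean for each of the 4 groups and no mouse term. A prior count of 2 was added for log2 values of single libraries. The mice are separate animals, and no replicate pair agreed within counting noise (chi-square per gene from 18.2 to 189). As a check of the pairing, the Dll1+ and Dll1- library of a mouse were compared as deviations from their groups' means, which correlated at -0.05 in the GFP mice and 0.55 in the mCh mice.

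The genes named from each list were the up to 4 with the lowest p over the 4 mice, up to 2 with the lowest p for the difference between reporters, and the defining markers. Dll1, Aldh1a7, Cd200r1 and genes named as too low to test fall outside this rule. So do Abcg2, Ly6a, Esr1, Krt19, Gata3, Pgr, Areg, Rdh10 and Cyp26b1, which were chosen after their values were seen. The profiles nearest to Aldh1a1 are not reported here. The 8 genes, the lists and the tests were chosen with earlier results of these data known. Of 15 listed R-spondin and LGR genes, 1 name had no match in the table.

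The alternatives were RLE size factors, DESeq2 1.42.0, no filter (34834 genes), at least 10 counts in every library (15566 genes), no mouse block, the libraries of a reporter or Dll1 status fitted alone, limma 3.58.1 voom with the mouse as a random effect, and each mouse left out.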

Additional observations from a re-analysis of the deposited data

Results flagged for a closer look

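In 3 genes both GFP mice changed in one direction between Dll1- and Dll1+ cells and both mCh mice in the other. The share of all tested genes with this pattern was not counted, so the number is a description only. The effect in GFP mice minus that in mCh mice was 2.55 for Procr (log2, adjusted p = 0.0864), -1.85 for Bcl11b (adjusted p = 0.0989) and -0.42 for Cd24a (adjusted p = 0.279) in edgeR's quasi-likelihood test, so that none passed the threshold after adjustment over all genes. DESeq2 called the difference for Procr (adjusted p = 0.0008) and Bcl11b (adjusted p = 0.0060), and without mCh mouse 1 edgeR called it for Procr (2.98, adjusted p = 0.0148). Over the alternatives the adjusted p ranged from 6.6e-08 to 0.475 for Procr, from 1.9e-05 to 0.938 for Bcl11b and from 0.0866 to 0.738 for Cd24a.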

How the results depend on the processing

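Prom1 over the 4 mice was called in 9 of 9 alternatives, Lgr5 in 6 and Cd200 in 5. Of the 8 genes, 3 were called over the 4 mice, 1 to 3 when each mouse was left out. In the GFP mice 3 were called, 0 to 4 without each mouse. In the mCh mice 3 were called, 6 with DESeq2, 5 with no filter, 0 with that line fitted alone and 2 to 4 without each mouse. The difference between the lines called 0, DESeq2 2, no filter 3, and 0 to 2 came without each mouse. For mCh against GFP in Dll1- libraries, 2 were called, 1 with no filter, 1 with those libraries fitted alone and 0 to 3 without each mouse. In Dll1+ libraries 1 was called, 2 with no filter and 0 to 2 without each mouse. The GFP mice alone leave 1 residual degree of freedom, and mice left out leave 1 mouse for a line, which is assumed to vary like the others. In the mCh mice DESeq2 called 13.5% of all tested genes and no filter 10.4%, beside 11.8% in the main fit. Over all genes, calls over the 4 mice went from 2568 to 4362 with DESeq2, 1352 with no block and 398 to 2377 without each mouse. For the GFP mice they went from 1673 to 3001 with no filter, 274 with no block, 2387 for the line alone and 2 to 2346 without each mouse. For the mCh mice 2154 became 3637 with no filter, 212 with no block, 0 with the line alone and 917 to 1297 without each mouse, and for the difference 13 became 540 with DESeq2, 1143 with no filter, 44 with the stricter filter, 0 with no block and 0 to 682 without each mouse. The line comparisons gave 0 calls without either GFP mouse.

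Without the replicate block the counts of called members were 2 over the 4 mice, 2 in the GFP mice, 0 in the mCh mice and 0 for the difference. With the replicate block as a random effect, the comparisons of the lines kept 2 and 1 called genes. Of the values for single genes, 388 kept direction and call, 28 passed the threshold only under the alternative, 33 lost it and 15 changed sign. With no filter Prom1 between lines in Dll1- cells became 0.0402 and Cd24a in Dll1+ cells 0.00948 (log2). Sign changes on leaving out a mouse left ranges of -0.12 to 0.0373 for Cd24a over the 4 mice, -1.59 to 0.87 for Aldh1a1 in GFP mice and -0.38 to 0.19 for the Cd200 difference. Between lines in Dll1- cells the ranges were -0.13 to 0.12 for Prom1, -2.04 to 0.70 for Bcl11b and -0.25 to 0.46 for Cd200. In Dll1+ cells they were -0.18 to 0.0886 for Cd24a, -0.0284 to 2.52 for Bcl11b and -0.0464 to 0.46 for Cd200. The cause of these changes was not tested.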
